A study of Mus musculus with 2 samples.

Results

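Mir22 is the mouse gene of the microRNA miR-22, and it was taken from the 2 count tables of the series by its Ensembl identifier ENSMUSG00000065529, which gives 1 row of 1973 miRNA gene rows in each table. The series profiled small RNA of adrenal glands from newborn mice of strain B6NCrl at postnatal age 0 days, with no treatment stated and no second tissue. Each of the 2 libraries holds both adrenals (2 glands) of 1 pup, here called pup 2 and pup 1, and both pups came from 1 pregnancy. The labels state a single donor identifier for the pair of samples and no sex. If that identifier stands for a single animal, the n of 2 and every SD below would be technical. The size range given in the labels lies under 30 nucleotides, which covers mature miRNAs. Mir22 was selected on its CPM level and rank in these same libraries, so both are a description and carry no test.

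A miRNA gene is transcribed as part of a longer RNA, from which the enzyme Drosha cuts a hairpin. Dicer then trims the hairpin to a short duplex, and the strand that enters an Argonaute protein pairs through its seed, bases 2 to 8, with sites in messenger RNAs and represses them. miR-22 is known from heart and skeletal muscle growth, from blood cell formation and from tumours. Its described targets include Tet2, which oxidises methylated cytosine, and the deacetylases Hdac4 and Sirt1. The adrenal gland joins a steroid-producing cortex to a medulla of catecholamine-releasing chromaffin cells, with vessels and stroma around them. The libraries hold RNA of whole glands, so more cells that express Mir22 and more miR-22 per cell cannot be told apart.

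The sequences below show what a Mir22 count can come from. They are RefSeq sequences on GRCm38.p6, the mm10 assembly of the files, printed 5′ to 3′ in RNA letters. In the hairpin, capitals mark the mature arms. In each arm, capitals mark the seed.

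Mir22 hairpin, chr11:75463716-75463810, plus strand: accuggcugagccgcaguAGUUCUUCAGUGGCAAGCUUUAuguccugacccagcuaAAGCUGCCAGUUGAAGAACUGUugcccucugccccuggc
miR-22-5p, chr11:75463734-75463755, plus strand: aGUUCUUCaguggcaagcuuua
miR-22-3p, chr11:75463772-75463793, plus strand: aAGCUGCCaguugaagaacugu

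The hairpin is 95 bases long, with miR-22-5p at hairpin positions 19 to 40, miR-22-3p at positions 57 to 78, and 16 bases between the arms. Its predicted fold (RNAfold) had a free energy of -41.9 kcal/mol with 36 base pairs, 19 of them between the arms, and all 7 seed bases of miR-22-3p were paired. Per base this was -0.441 kcal/mol, against a median of -0.406 over 1005 mouse hairpins of the RefSeq table, and 65.5% of those hairpins were less stable per base. GC content was 55.8%, against a median of 51.7%. The tables count reads per gene, so the arms are summed, and which arm gave the counts was not measured.

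Neither seed was shared. AGCUGCC of miR-22-3p and GUUCUUC of miR-22-5p each occurred in 1 of 1738 mature sequences of the table. A seed held by a single gene was common, since 84.5% of the 1398 different seeds were of this kind. The closest mature sequence of another gene was miR-3966, which starts at position 2 of miR-22-3p and differs by the substitutions U11C and A14U, counted from the 5′ end of miR-22-3p. It is printed below miR-22-3p with the differing bases in capitals, because no other mature sequence of the table came as close to it.

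miR-22-3p, chr11:75463772-75463793, plus strand: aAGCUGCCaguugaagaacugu
miR-3966, chr10:97423493-97423513, plus strand: agcugccagCugUagaacugu

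Of the 1973 rows, 1894 matched the annotation and so had a position. None of the rows with a position lies at the Mir3966 locus, so the level of Mir3966 was not analysed here. Among the other hairpins compared, the best match to miR-22-3p needed 6 edits, and the best match to miR-22-5p also needed 6. In 141767 annotated transcripts, the complete miR-22-3p sequence occurred in the transcripts of the Mir22 locus alone, on their own strand. Of the 20 most abundant genes, 18 had a sequence in the table. Of these, 9 had a mature sequence within 2 edits of another gene's, among them Mir10a, Mir10b, Mir99a and the let-7 genes. Only 1 arm was listed for Mir126a, Mir23b and Mir375, so the number with a close relative may be higher. Among the listed arms, 0 of the 18 genes had an identical mature sequence in another gene. Whether reads of near relatives mapped to several places was not tested. Reads that map to several places were left out of the gene counts, and no copy of miR-22 that would divert its reads in this way was found in the miRNA and transcript sequences searched. The genome outside them was not searched.

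The Mir22 hairpin lies wholly inside an exon. Its host Mir22hg (ENSMUSG00000085148.1, chr11:75461539-75466676, plus strand) is a noncoding gene, and in both of its transcripts the hairpin sits in exon 2. In Mir22hg-202, which has 3 exons, exon 2 is 165 bases long and leaves 23 bases before the hairpin and 47 after it. In Mir22hg-201, which has 2 exons, exon 2 runs on to 337 bases and leaves 219 after it. The same 165-base exon is also exon 2 of Tlcd2-203, a transcript without an annotated coding sequence that belongs to the coding gene Tlcd2. The coding transcripts of Tlcd2 start downstream and do not hold the hairpin, so each annotated exon that holds Mir22 is noncoding, and 1 of the 3 belongs to a transcript outside Mir22hg.

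**Figure D1:**
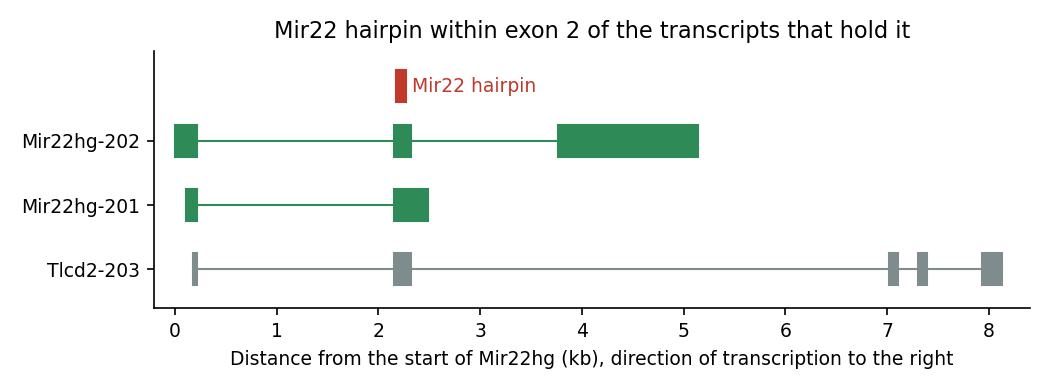
Exons (boxes) and introns (lines) of the 3 annotated transcripts that hold the Mir22 hairpin, against distance in kb from the start of Mir22hg. The hairpin (red) lies in exon 2 of Mir22hg-202, Mir22hg-201 (green) and Tlcd2-203 (grey).

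By the counted reads, Mir22 was among the most abundant miRNA genes of both libraries. Reads mapping to several loci, 32.2% of all reads in pup 2 and 34.9% in pup 1, were not counted. Genes with copies elsewhere may therefore stand too low beside Mir22, and its rank and share hold for the counted reads only. Its count was 107098 in pup 2 and 36142 in pup 1, and libraries are compared on the CPM scale, the count per 1000000 same-strand miRNA gene counts. Pup 2 had 32183 CPM, with an exact 95% interval of the share from 31994 to 32374 CPM, and pup 1 had 31934 CPM, from 31611 to 32259.8 CPM. The intervals overlap, and they cover counting error only. The mean was 32059 ± 176 CPM, or 3.21% ± 0.0176 of all miRNA gene counts (SD, n = 2). That was 117 times the median of 275 CPM over the 284 genes that averaged 10 CPM or more. These 284 genes are 14.4% of all rows.

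**Figure D2:**
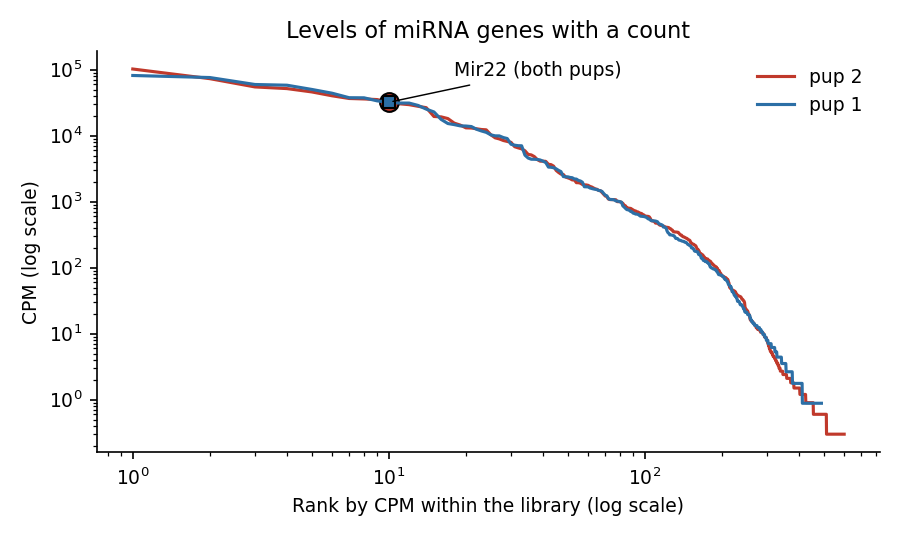
CPM of each miRNA gene with a count against its rank within the library, both axes on a log scale, for pup 2 (red) and pup 1 (blue). Mir22 (outlined markers) is 10th in each library, at 32183 CPM in pup 2 and 31934 CPM in pup 1, and its markers overlap.

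All Mir22 counts came from the strand of the gene. The opposite-strand column held 0 counts at Mir22 in pup 2 and 0 in pup 1, and the unstranded column repeated the same-strand count in each. Zero counts allow, at the limit of 3 counts, up to 0.00280% of the Mir22 count in pup 2 and 0.00830% in pup 1. An empty opposite strand was usual among the 284 genes: 263 of them, or 92.6%, had no opposite-strand count in either pup. These genes were kept by their same-strand level, so genes read mostly on the other strand could fall outside them. Over all rows, the opposite-strand column held 104740 counts in pup 2 and 39345 in pup 1. Among the 20 most abundant genes 15 had none, and the largest number was 29 for Mir126a, the endothelial miRNA of Egfl7. At the other end of the 284 genes, Mir3074-1, which lies opposite an exon of 2010111I01Rik, had 46.3% of its reads on its own strand. The source of its opposite-strand reads was not tested, and overlap with other miRNA genes was not looked up.

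The libraries were of unequal depth, with 3327743 same-strand counts in pup 2 and 1131762 in pup 1, a ratio of 2.94. Reads mapping to several loci made up 32.2% of all reads in pup 2 and 34.9% in pup 1. Tissue markers fixed for the check of the label included Mir375 of neuroendocrine cells at 34000.3 ± 5070.5 CPM, Mir126a of endothelium at 91954 ± 14614 CPM, the hepatocyte miRNA Mir122 at 3529.98 ± 779 CPM, Mir223 of myeloid cells at 794 ± 127 CPM and the erythroid Mir451a at 262 ± 1.40 CPM. Further members were Mir7b at 1924.7 ± 520.2 CPM and Mir7-1 at 373 ± 92.2 CPM on the neuroendocrine list, and Mir486 at 47.2 ± 15.7 CPM and Mir144 at 29.4 ± 12.8 CPM on the erythroid list. No miRNA of the list is specific to adrenal cells, so the tissue label could be checked only in this indirect way.

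The order around Mir22 depended on the pup. Mir22 ranked 10th in pup 2 and 10th in pup 1, yet 12th by mean, because different genes stood above it in each library. Mir10b, of the Hoxd cluster, was above it in both, with 35221 CPM in pup 2 and 33671 CPM in pup 1. Mir335, in an intron of Mest, had 36000.4 CPM in pup 2 and 31202 CPM in pup 1, so it lay on either side of Mir22. Mir375 had 30415 CPM in pup 2 and 37586 CPM in pup 1, Mir99a had 40203 CPM in pup 2 and 28721 CPM in pup 1, and Mirlet7d had 29497 CPM in pup 2 and 43997 CPM in pup 1. Each of these last 4 genes therefore changed places with Mir22 between the pups, and their mean differences from it are within their spread.

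By mean CPM, 5 genes stood next below Mir22. Mir26b, in an intron of a Ctdsp gene, had 27871 CPM in pup 2 and 25231 CPM in pup 1, under Mir22 in both. Mir322, of an X-linked cluster, had 26551 CPM in pup 2 and 22882 CPM in pup 1. Mirlet7b was also lower in both, but its 12391 CPM in pup 2 and 31174 CPM in pup 1 span most of that range. Mir99b at 17901 ± 364 CPM and Mir143, a smooth muscle miRNA, at 16985 ± 3226 CPM completed the 5. Within a library the next gene was nearer than the means show, Mir375 in pup 2 and Mir335 in pup 1, with the values given above.

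**Figure D3:**
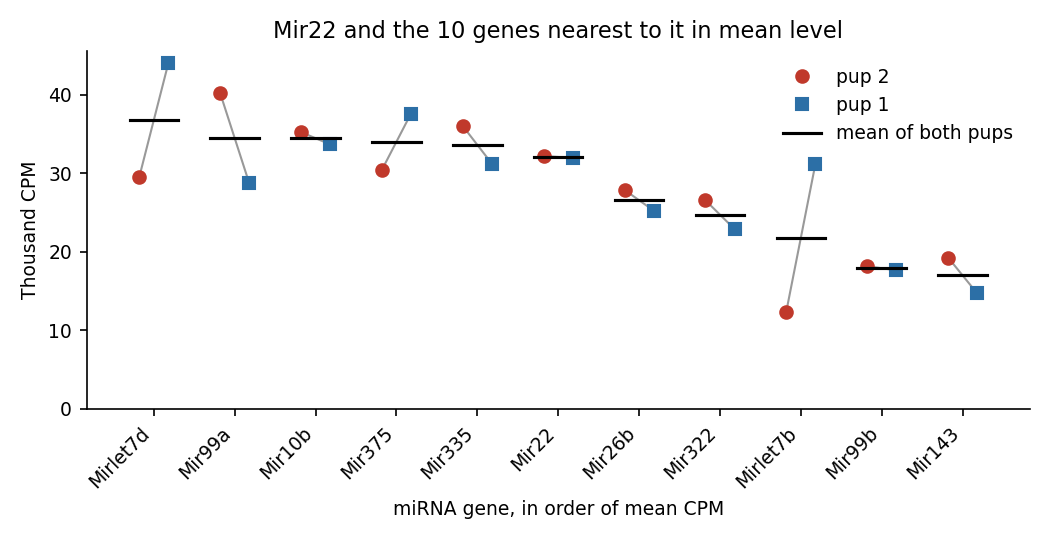
CPM, in units of 1000, of Mir22 and of the 5 genes above and 5 below it by mean, with pup 2 as red circles, pup 1 as blue squares and the mean as a black bar. The points of Mir22 nearly coincide, those of Mirlet7d, Mir99a, Mir375 and Mir335 straddle the level of Mir22, and those of Mir26b to Mir143 lie below it.

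On the CPM scale, the difference in Mir22 between the pups was within counting error. The ratio of pup 2 over pup 1 was 1.01, with an exact conditional 95% interval for 2 Poisson rates from 0.996 to 1.02, and the log2 ratio with a prior of 1 CPM was 0.011. Under other scalings the log2 ratio lay outside that interval, at 0.12 with TMM, 0.044 with DESeq2 size factors, 0.077 over all reads of the table and -0.010 without the 10 most abundant genes in the denominator. Of the 284 genes, 15 (5.28%) lay at least 2-fold apart, 10 of them (3.52%) higher in pup 2 and 5 (1.76%) lower, and Mir22 was not among them. With no filter on low values 85 of 635 genes lay that far apart, 42 of them higher in pup 2 and 43 lower. The median log2 ratio of the 284 genes was 0.078, with quartiles at -0.22 and 0.36, and Mir22 minus the median gene was -0.067. Only 7 genes had a log2 ratio closer to 0.

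The coefficient of variation between the pups was 0.549% for Mir22, against a median of 7.76% for the 20 most abundant genes, and it was the lowest of the 20 on the CPM scale but ranked 3 with DESeq2 size factors (2.15%) and 6 with TMM scaling (5.73%). With 2 libraries, a small difference in 1 gene of many does not measure how stable its level is. Within the top 20, Mir23a at 1.66% and Mir127 at 1.99% followed on the CPM scale, and Mirlet7b varied most, at 61.0%.

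**Figure D4:**
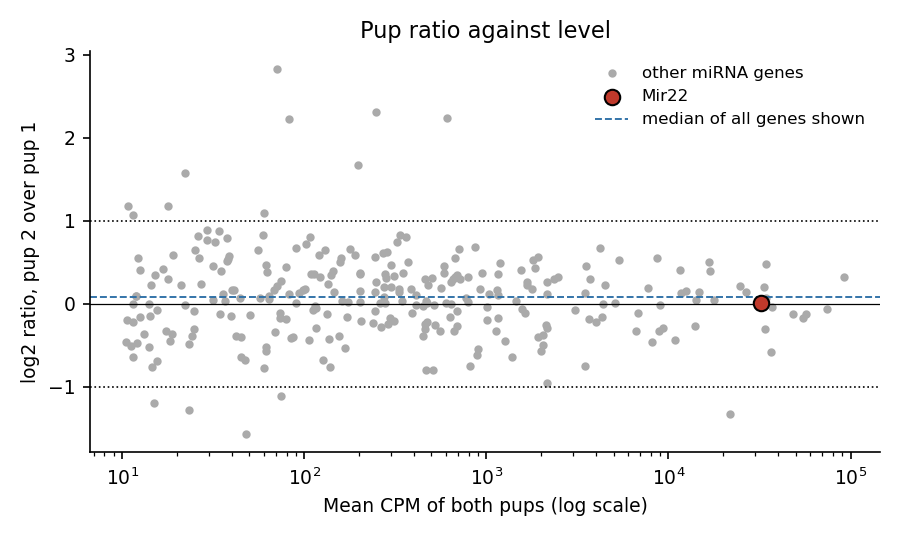
Log2 ratio of pup 2 over pup 1 against mean CPM (log scale) for the 284 genes that averaged 10 CPM or more, with 2-fold limits dotted and the median of 0.078 dashed. Mir22 (red) lies at 0.011, between the median line and 0.

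The genes most like Mir22 in both libraries were Mir10b, Mir335 and Mir375. Likeness was the Euclidean distance in log2 CPM over the 2 pups, among the other genes that averaged 1000 CPM or more, and it came to 0.15 for Mir10b, 0.17 for Mir335 and 0.25 for Mir375. With 2 libraries of 1 group this mostly restates a like level.

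Genes placed as Mir22 is, wholly inside an exon of a noncoding gene on the same strand, were 61 of the 1973 rows. An average of 10 CPM or more was reached by 37 of them (60.7%), against 14.4% of all rows. The median of these 37 was 469 CPM, against 275 CPM for all 284 genes, and their median log2 ratio was 0.012, against 0.078. Mir22 held 27.2% of the summed mean CPM of the 61 genes and was second to Mirlet7d, in 6720427I07Rik, whose 36747 ± 10253 CPM spread across the Mir22 level. Next was Mirlet7b, in Lncppara, at 21783 ± 13282 CPM.

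After these 3 the counted levels of the class dropped steeply. Reads mapping to several loci were not counted, so members with copies elsewhere may stand too low here and in the share above. Mir30d, of the widely expressed miR-30 family, had 5109 CPM in pup 2 and 5066 CPM in pup 1. Mir17, of the proliferation-linked cluster in Mir17hg, had 3480.1 ± 223 CPM, and Mir92-1 of the same host had 1014 ± 17.2 CPM. Mir214, a mesenchymal miRNA in Dnm3os, had 3063 ± 119 CPM. Mir122 belonged to this class as well, with the level given above. Mir425 at 1670.3 ± 180 CPM and Mir134, in the imprinted noncoding gene Mirg, at 1010.02 ± 96.1 CPM were the others at 1000 CPM or more. By mean, Mir22 was 6.30 times as high as Mir30d, the next gene of the class after the let-7 pair.

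**Figure D5:**
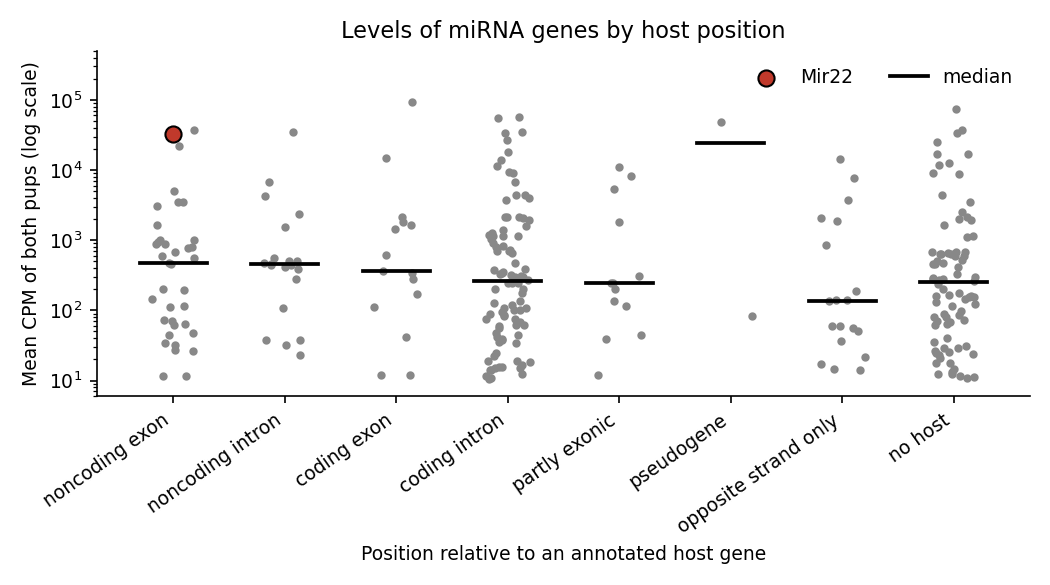
Mean CPM of both pups (log scale) for the 284 genes that averaged 10 CPM or more, by position relative to an annotated host gene; points are genes and black bars are medians. Mir22 (red) stands near the top of the noncoding exon class, whose median is 469 CPM.

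Chromosomal neighbours had far lower levels. Mir3971, 87.6 kb downstream, had 0 counts in pup 2 and in pup 1, where the 3-count limit stands at 0.902 CPM for pup 2 and 2.65 CPM for pup 1. Upstream lie Mir132 at 289.97 kb and Mir212 at 290.24 kb, a pair known to respond to cAMP and ACTH. Mir132 had 510.3 CPM in pup 2 and 516 CPM in pup 1, and Mir212 had 44.5 CPM in pup 2 and 30.9 CPM in pup 1. This Mir212 difference, a ratio of 1.44 with an interval from 0.989 to 2.14, rested on 148 counts in pup 2 and 35 in pup 1. No other miRNA gene of the tables that had an annotated position lies within 500 kb.

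Other miRNAs known, like miR-22, to repress Tet genes were measured at lower levels. Of 8, 7 averaged 10 CPM or more, with a median of 113 CPM, against 275 CPM for all 284 genes, led by Mir101b at 704 ± 226 CPM, Mir29a at 686 ± 117 CPM and Mir101a at 143 ± 27.7 CPM. None of the 7 was at least 2-fold apart between the pups, beside 5.28% of all genes, and 6 had a higher CPM in pup 2, as did 165 of all 284 genes. Mir26a-1, Mir26a-2 and other members are encoded at several loci, and their multi-mapped reads were not counted, so these levels are a lower limit of the mature miRNA.

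Since miR-22 is known from muscle, striated muscle miRNAs were set beside it. Of 9 measured genes, 1 (11.1%) averaged 10 CPM or more, a share near the 14.4% of all rows. This was Mir206 of skeletal muscle, at 411 CPM in pup 2 and 82.2 CPM in pup 1, a 5.00-fold difference (4.05 to 6.24). The summed list reached 423 CPM in pup 2 and 87.5 CPM in pup 1, while Mir22 had 32183 CPM in pup 2 and 31934 CPM in pup 1. Counts were 0 in both pups for the defining genes Mir1a-1, Mir133a-1 and Mir133a-2, though they too are multi-locus genes. Mir208b had 12 counts in pup 2 and 2 in pup 1, and for Mir1b there were 8 in pup 2 and 3 in pup 1.

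The series measured no messenger RNA, and sites for miR-22-3p are given from sequence only. The transcript strand of the longest annotated 3′ UTR of each gene was searched for GGCAGCTA (the complement of the seed followed by A, an 8mer), GGCAGCT (a 7mer that the 8mer contains) and GCAGCTA (a 7mer that the 8mer also contains). Of 21020 genes with such a UTR, 17.1% held at least 1 of these words and 1.96% held the 8mer. All 5 described targets considered, Tet2, Hdac4, Sirt1, the oestrogen receptor gene Esr1 and the Myc partner gene Max, held a word, and 2 of them, Sirt1 and Esr1, held the 8mer. They were listed as known targets, so this count is no independent evidence, and their median UTR of 3058 bases is longer than the median of 961 bases for all genes. The sites below, on GRCm38 and from GENCODE transcripts, show what the miR-22-3p seed faces, with the matching word in capitals.

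Sirt1, chr10:63320154-63320175, minus strand, 8mer: tttccaaaacttgtGGCAGCTA
Tet2, chr3:133465322-133465343, minus strand, 7mer: accgaaagagaataGGCAGCTg
Hdac4, chr1:91929849-91929870, minus strand, 7mer: tgcacgccaaactcGGCAGCTt

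Of 14 genes of adrenal function, 3 (21.4%) held a word, close to the 17.1% of all genes. They were Star, which moves cholesterol into mitochondria, Mrap, which brings the ACTH receptor to the cell surface, and Chga, the chromogranin of chromaffin granules. The 8mer was present in Mrap, and the Chga word was a 7mer. The other genes, among them Cyp11a1, Nr5a1, Th and Dbh, held none in the UTR searched, whose median length over the 14 genes was 367.5 bases. A match describes the sequence and does not show that miR-22 acts on it.

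Mrap, chr16:90749542-90749563, plus strand, 8mer: ctccaaccaacccgGGCAGCTA
Chga, chr12:102564862-102564883, plus strand, 7mer: cttctctgaacacaGGCAGCTt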

How the data were processed

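The values deposited by the authors are raw counts of reads for each miRNA gene, 1 table per library, with unstranded, same-strand and opposite-strand columns. Per the notes deposited beside the tables, reads were placed on mm10 with GENCODE M4. No aligner or trimming step was stated in these sources. The 4 rows that name no gene (unmapped, multi-mapped, outside genes, ambiguous) stayed out of library sizes, and multi-mapped reads made up 32.2% and 34.9% of reads in pup 2 and pup 1. Of 1973 rows, 1894 matched a symbol in the GENCODE M21 annotation of that assembly.

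CPM was computed from the same-strand counts over their sum, 3327743 in pup 2 and 1131762 in pup 1. A single group with 1 library per pup allows no test, so no p-value is given. Shares have exact Clopper-Pearson 95% intervals, ratios have exact conditional Poisson intervals, and all cover counting error only, since PCR reads without molecular identifiers are not independent molecules. Log2 ratios used a prior of 1 CPM and genes averaging 10 CPM or more, and calls needed 2-fold. The floor was 3 counts. Genes were named by rule: the 5 above and 5 below Mir22 by mean CPM, the 3 nearest in log2 CPM, miRNA genes within 500 kb, noncoding-exon genes at 1000 CPM or more, and the 3 leading members of each list. miRNA genes outside this rule (Mir23a, Mir127, Mir3074-1, Mir3966, Mir10a, Mir26a-1, Mir26a-2, Mir1a-1, Mir133a-1, Mir133a-2) were picked after their values or sequences were seen. Mir22 and the lists were chosen with earlier results of these data known. Scaling alternatives came from edgeR 4.0.16 (TMM) and DESeq2 1.42.0, folds from RNAfold 2.7.2, intervals from SciPy 1.17.1. The scripts were tested on simulated data. An item withheld from this text, and a gene list built on it, are not reported here.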

Additional observations from a re-analysis of the deposited data

How the results depend on the processing

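In all, 26 alternative values were computed for the level, rank, ratio, spread and strand of Mir22 and for the 2-fold count. Of these, 13 stayed within the replicate spread, the counting interval or a like count, and 13 moved. Reversal of a call was not scored. The strand values and the mean levels with a pup left out were bound to count as staying, so this tally does not measure robustness. Mean Mir22 was 16529.7 CPM with all reads of the table as denominator, 64542 CPM without the 10 most abundant genes in it and 31031 CPM in the unstranded column. Leaving out each pup gave 31934 to 32183 CPM and rank 10 instead of 12. The log2 ratio was 0.12 with TMM, 0.044 with DESeq2, 0.077 over all reads and -0.010 without the 10 most abundant genes. All lay outside the counting interval of the CPM ratio and none was near 2-fold. The last of these values differs in sign from the 0.011 of the CPM scale. TMM moved the median gene to 0.18. The spread rank of Mir22 in the top 20, an alternative chosen after seeing the data, was 6 with TMM and 3 with DESeq2. Genes 2-fold apart numbered 4 of 188 at 100 CPM or more and 85 of 635 with no filter, against 15 of 284. The different scaling factors, denominators and filters make these changes by construction. No paired analysis was possible because the 2 libraries form a single group. Depth limits genes of few counts, such as Mir212, more than Mir22.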
